A study of Homo sapiens with 24 samples.

Results

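The major histocompatibility complex (MHC) lies on the short arm of chromosome 6, next to the HIST1 cluster of replication-dependent histone genes. The stretch described here is hg19 chromosome 6 from 28 to 33.5 Mb, on either strand, and its members are all eCLIP peaks of 7 deposited lists whose midpoint falls in it. There were 3077 of them among 269336 peaks in all: 869 and 946 in RBFOX2 replicates 1 and 2, 359 in IgG, and 299, 245, 209 and 150 in SLBP replicates 1 to 4. The peaks of chromosome 6 beyond 33.5 Mb, 7253 in all, served as background.

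The cells were 293T, an established human line derived from embryonic kidney, and the labels name no genotype beyond the line. All were crosslinked with ultraviolet light before lysis. The 3 groups differ in the antibody: RBFOX2 (Bethyl, n = 2), SLBP (MBL, n = 4) and an IgG isotype control (Thermo Fisher, n = 1). RNase I was 40 U in the RBFOX2 and IgG libraries and in SLBP replicates 1 and 2, and 5 U in SLBP replicates 3 and 4. The labels do not say whether replicates were separate cultures, so a p-value here reflects only how far these libraries vary, possibly for technical reasons.

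The MHC is known for the genes of class I and class II antigen presentation, which flank a gene-rich middle stretch called class III. Class III holds, among others, the complement genes C4A and C4B, near-identical copies of each other that encode forms of complement component C4. SLBP binds the stem-loop that ends replication-dependent histone mRNAs, and RBFOX2 is a splicing regulator that binds GCAUG elements. The peaks carry no gene names and no hg19 annotation was used here, so places are given by position and strand; the name C4A at 1 place comes from the definition of the region and was not checked against an annotation.

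Each peak has the authors' log2 fold of immunoprecipitation over its own input and a −log10 p for it. A peak was called enriched at a −log10 p of at least 5 and a log2 fold of at least 3, which is 8-fold over input. The read depth behind a fold is unknown.

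The SLBP signal of the histone cluster ended before the MHC. In the HIST1 window, 26 to 28 Mb, the SLBP lists held 197, 163, 229 and 182 enriched peaks in replicates 1 to 4, of 216, 175, 250 and 191 peaks there. The last of them ended 138 kb before the window, at chr6:27861613-27861666 on the plus strand. From 28 to 31.5 Mb there was no enriched SLBP peak (0 in each of the 4 lists), although SLBP peaks were called there. In the first 0.5 Mb bin beyond the border the SLBP lists held 3, 4, 2 and 1 peaks, against 52, 48, 57 and 48 in the bin before it. The RBFOX2 lists went the other way across the border, with 23 and 20 peaks before it and 45 and 52 after it. The nearest peaks on either side of the border belonged to RBFOX2 lists, 94.3 kb before it (log2 fold 2.22) and 49.4 kb after it (log2 fold 1.77). At the far border of 33.5 Mb the nearest peaks were again RBFOX2 peaks, 75.0 kb inside (log2 fold −0.85) and 41.2 kb outside (log2 fold 0.51).

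**Figure D1:**
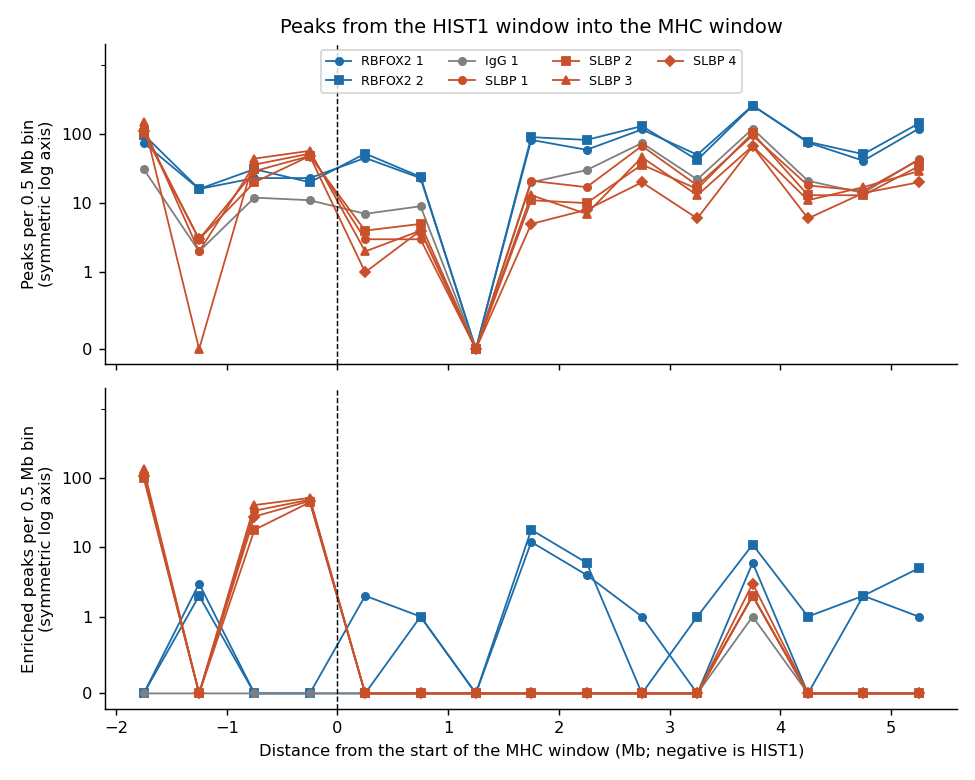
Peaks (upper panel) and enriched peaks (lower panel) per 0.5 Mb bin of chromosome 6, against the distance in Mb from the start of the MHC window (dashed line), with 1 line per library and a symmetric log count axis that is linear up to 1. The 4 SLBP lines hold 45 to 52 enriched peaks in the last bin before the line and 0 in each bin after it up to the bin of the C4A place, and all 7 libraries have 0 peaks in the bin from 29 to 29.5 Mb.

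Peaks were packed more densely in the MHC than on the rest of the chromosome in all 7 libraries. RBFOX2 replicates 1 and 2 had 158 and 172 peaks per Mb in the window, against 14.6 and 19.1 per Mb beyond it. IgG had 65.3 against 5.61 per Mb. The SLBP replicates 1 to 4 had 54.4, 44.5, 38 and 27.3 against 4.51, 3.59, 3.41 and 2.01 per Mb. The difference in density was not tested. The ratio of the densities was 10.8 and 9.01 for RBFOX2, 11.6 for IgG, and 12.1, 12.4, 11.2 and 13.6 for SLBP.

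The MHC took a smaller share of the RBFOX2 peaks. Of the peaks in the window and its background together, 28.4% ± 2.6 (SD, n = 2) of RBFOX2 peaks and 33.0% ± 1.8 (SD, n = 4) of SLBP peaks lay in the window. The 2 groups did not overlap: the higher RBFOX2 share was 30.2% and the lowest SLBP share 30.9%, with IgG at 31.8%. The difference of −4.58 points was −2.72 without RBFOX2 replicate 2. The RBFOX2 lists were also the longest, with 74902 and 97594 peaks, against 10122 to 28361 in the others. The longest list, RBFOX2 replicate 2, had the lowest share, 26.5%, and the shortest, SLBP replicate 4, the highest, 35.2%. SLBP replicate 3, with 16974 peaks, fell out of this order at 30.9%. Antibody and list length thus go together here, and an effect of length was not tested. The exact permutation test gave the smallest p that 2 against 4 libraries allow (two-sided, p = 0.133), so no comparison of RBFOX2 with SLBP here could pass 0.05. The same p was found for all 6 such comparisons of the window, and adjusting over the 6 by Benjamini-Hochberg left it at 0.133.

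The peaks of the MHC were spread unevenly over its stretches. The limits of the classical stretches were set from general knowledge and not checked against an annotation. Class III, taken as 31.4 to 32.2 Mb, held 1199 of the 3077 peaks (39.0%), the most of the 5 stretches, and its RBFOX2 density was 424 and 420 peaks per Mb in replicates 1 and 2. Class I, 29.6 to 31.4 Mb, held 1003 peaks, with 153 and 168 RBFOX2 peaks per Mb. Class II, 32.2 to 33.1 Mb, held 168, with 47.8 and 57.8 RBFOX2 peaks per Mb. The stretch called extended class I here was cut at the start of the window, next to the histone cluster. It ran from 28 to 29.6 Mb and held 280 peaks. The extended class II stretch from 33.1 to 33.5 Mb held 427. Beside the histone cluster, in the extended class I stretch, the antibodies parted: 5.31% to 6.22% of the MHC peaks of the SLBP lists lay there, against 10.7% and 12.1% of RBFOX2 peaks and 6.41% of IgG peaks.

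Long parts of the MHC held no peak of any list. Of 110 bins of 50 kb, 41 were empty, and the 10 fullest held 46.6% of all peaks. The longest stretch without a peak on either strand ran from 28954863 to 29560346, 605 kb. The next, of 323 kb, ran from 32162230 to 32485439, across the border between class III and class II. The fullest bin, 31.6 to 31.65 Mb in class III, held 234 peaks: 62 and 54 of RBFOX2, 31 of IgG and 22, 28, 19 and 18 of SLBP replicates 1 to 4. It was the fullest bin in every list except SLBP replicates 1 and 3, where the bin from 30.65 to 30.7 Mb held more, with 24 and 27.

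RBFOX2 enrichment lay beside the empty 605 kb. In the extended class I stretch 15 of 93 RBFOX2 peaks were enriched in replicate 1 (16.1%, exact 95% interval 9.32 to 25.2) and 19 of 114 in replicate 2 (16.7%, interval 10.3 to 24.8); the intervals cover counting error only. In class I the shares were 1.81% and 2.31%, in class III 1.77% and 3.57%, in class II 4.65% and 3.85%, and in extended class II 0.847% and 3.55%. Both libraries had their highest share in extended class I. The intervals treat peaks as independent, but touching pieces of a site count as separate peaks. The place at chr6:29570864-29571080 alone held 12 peaks of 3 lists. The intervals therefore cannot compare the stretches, and that difference was not tested. Most of the enriched peaks of extended class I came from 1 bin of 50 kb, 29.55 to 29.6 Mb, which was picked after its values were seen. It held 12 of the 15 and 18 of the 19 enriched peaks, and all 25 and 38 RBFOX2 peaks in it were on the minus strand, with median log2 folds of 2.92 and 2.57. The other lists had 7 (IgG), 10, 4, 7 and 3 (SLBP) peaks in the bin, all on the minus strand, with median log2 folds of 1.21 in IgG and 1.24 to 2.17 in SLBP, and 0 of them were enriched.

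**Figure D2:**
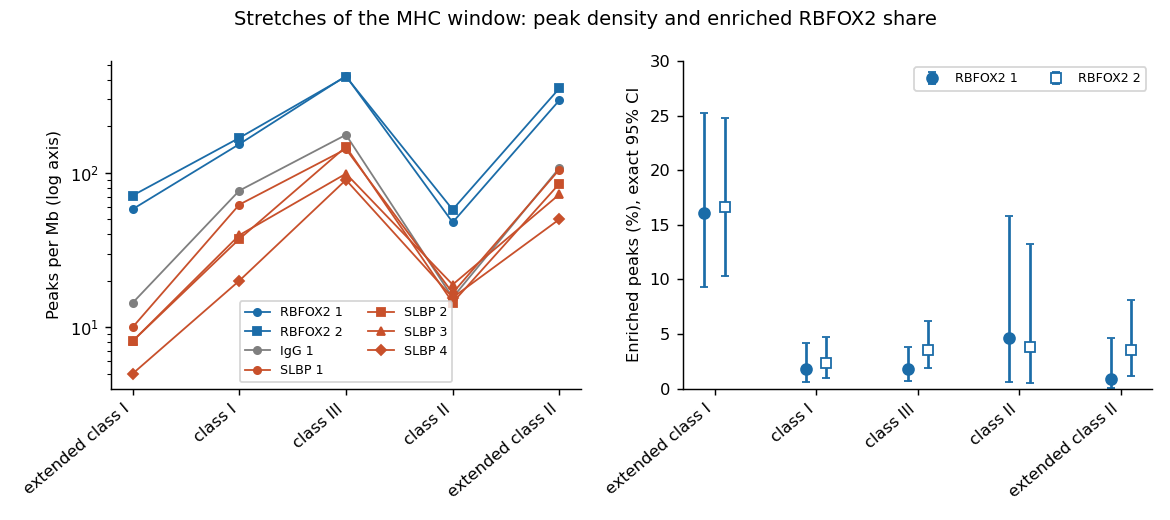
Left, peaks per Mb on a log axis in the 5 stretches of the MHC, with 1 line per library; right, the share of RBFOX2 peaks that were enriched, in percent, with exact 95% intervals as bars. All 7 lines are highest in class III, and both RBFOX2 libraries have their highest enriched share in extended class I, at 16.1% and 16.7%.

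Over the whole window RBFOX2 had 29 enriched peaks in replicate 1 and 45 in replicate 2, averaging 37 ± 11.3 (SD, n = 2). That is 3.34% of its MHC peaks (exact 95% interval 2.25 to 4.76) in replicate 1 and 4.76% (interval 3.49 to 6.31) in replicate 2. The backgrounds were 7.95% and 7.66% over the whole lists, and 9.28% and 5.95% on the rest of chromosome 6. The MHC share minus that of the rest of the chromosome was −5.94 percentage points in replicate 1 and −1.19 in replicate 2. Without the bin at 29.55 to 29.6 Mb the shares were 2.01% and 2.97%. SLBP had 2, 2, 2 and 3 enriched peaks in the MHC, 0.669%, 0.816%, 0.957% and 2% of its peaks there. The whole SLBP lists stood at 1.23%, 1.27%, 1.70% and 2.33%, and 197 of their 284, 163 of 233, 229 of 289 and 182 of 236 enriched peaks lay in the HIST1 window. On the rest of chromosome 6 the SLBP share was 0 in all 4 lists, where 0 of 619, 493, 468 and 276 peaks allow a share of up to 0.485%, 0.609%, 0.641% and 1.09%, taken as 3 counts of the total and covering counting error only. IgG had 1 enriched peak, 0.279% of its MHC peaks, against 0.180% of its whole list and 0.649% on the rest of chromosome 6. All but 1 of the SLBP calls, and the IgG call, came from the C4A place. Over the 7 libraries the enriched share differed from the rest of the chromosome by −0.44 ± 2.63 points (SD, n = 7; exact permutation test by sign flips, two-sided, p = 0.844, adjusted p = 0.844), higher in 4 and lower in 3. The mean ran from −1.11 to 0.48 points over the alternatives. The 4 higher libraries were the SLBP lists, whose background share was 0. There the C4A place, picked from these lists, fixed the sign in advance, so no conclusion is drawn from this test.

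Compared with the rest of the chromosome, MHC peaks stood lower over input. The median log2 fold was 0.22 in the MHC and 0.87 beyond it in RBFOX2 replicate 1, and 0.19 and 0.86 in replicate 2. It was 0.90 and 1.31 in IgG. In SLBP replicates 1, 2 and 3 it was 1.24 and 1.66, 1.04 and 1.46, and 0.66 and 0.98, while in replicate 4 both medians were 1.17. The median was thus lower in the MHC in 6 of 7 libraries and tied in 1, with a mean difference of −0.41 ± 0.23 (SD, n = 7). The difference was the identical −0.415 in IgG and SLBP replicates 1 and 2. The folds take few distinct values: 126 over 359 MHC peaks in IgG, and 67 over 150 in SLBP replicate 4. Medians of the IgG and SLBP lists therefore move in coarse steps, and the size of their shift is imprecise. An exact permutation test by sign flips over the 7 libraries gave p = 0.0312 (two-sided), or 0.0781 after Benjamini-Hochberg adjustment over the 5 measures compared this way, which misses 0.05. It ran from 0.0781 to 0.156 over the other backgrounds, windows and peak sets and the libraries left out.

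The share of peaks below input was higher in the MHC in 7 of 7 libraries. It was 47.2% and 43.4% in RBFOX2 replicates 1 and 2, against 31.1% in both on the rest of the chromosome. IgG had 13.6% against 10.2%. SLBP replicates 1 to 4 had 11.7%, 12.2%, 30.6% and 19.3%, against 7.27%, 11.2%, 19.0% and 17.8%. The mean difference was 7.22 ± 5.99 percentage points (SD, n = 7; exact permutation test by sign flips, two-sided, p = 0.0156, the smallest p possible, and 0.0781 adjusted). The adjusted p ran from 0.0781 to 0.182 over the same alternatives. The difference was larger for RBFOX2, 14.2 ± 2.6 (SD, n = 2), than for SLBP, 4.68 ± 4.85 (SD, n = 4), and the groups did not overlap (exact permutation test, two-sided, p = 0.133).

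The antibodies parted in strand. Of the MHC peaks 43.0% and 44.3% lay on the plus strand in RBFOX2 replicates 1 and 2, below the 47.2% and 48.0% of the background. In the SLBP lists 50.2%, 52.7%, 49.8% and 62.7% lay on the plus strand, above their backgrounds of 43.1%, 47.9%, 46.4% and 44.6%. IgG stood at 51.0% against 46.2%. The difference from the background was −3.90 ± 0.30 percentage points (SD, n = 2) for RBFOX2 and 8.33 ± 6.69 (SD, n = 4) for SLBP, again without overlap (exact permutation test, two-sided, p = 0.133). SLBP replicate 4, the shortest list, held the widest gap, 18.1 points. Over all 7 libraries the strand difference was 4.33 ± 7.46 points (SD, n = 7; exact permutation test by sign flips, two-sided, p = 0.156, adjusted p = 0.260). It was 2.03 points without SLBP replicate 4 and 0.0172 points against all other autosomes and chromosome X in place of the rest of chromosome 6, so its size depends on that library and on the background. Many bins held mostly 1 strand: of 34 bins of 50 kb with at least 20 peaks, 7 had 90% or more of their peaks on the plus strand and 9 on the minus strand. The bin from 31.55 to 31.6 Mb held 116 peaks of the 7 lists, all on the plus strand.

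Median peak width in the MHC was 37 and 39 nt in the RBFOX2 lists, 34 nt in IgG, and 34, 34, 34 and 32 nt in SLBP replicates 1 to 4. The backgrounds were 34 and 35 nt, 31 nt, and 32, 33, 35.5 and 36 nt. MHC peaks were wider by 3.5 ± 0.7 nt (SD, n = 2) in RBFOX2, while SLBP replicates at 40 U were wider by 1.5 nt on average and those at 5 U narrower by 2.75 nt. The mean over 7 libraries was 1.07 ± 2.86 nt (SD, n = 7; exact permutation test by sign flips, two-sided, p = 0.375, adjusted p = 0.469), and was 0.583 nt without RBFOX2 replicate 2 and 1.92 nt without SLBP replicate 4. The RBFOX2 minus SLBP difference in width, 4.125 nt, was 2 nt with SLBP at 40 U only. SLBP at 40 U against 5 U could give no p under 0.333, and the 6 comparisons of the window gave exact permutation p-values between 0.333 and 1 (n = 2 and 2).

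**Figure D3:**
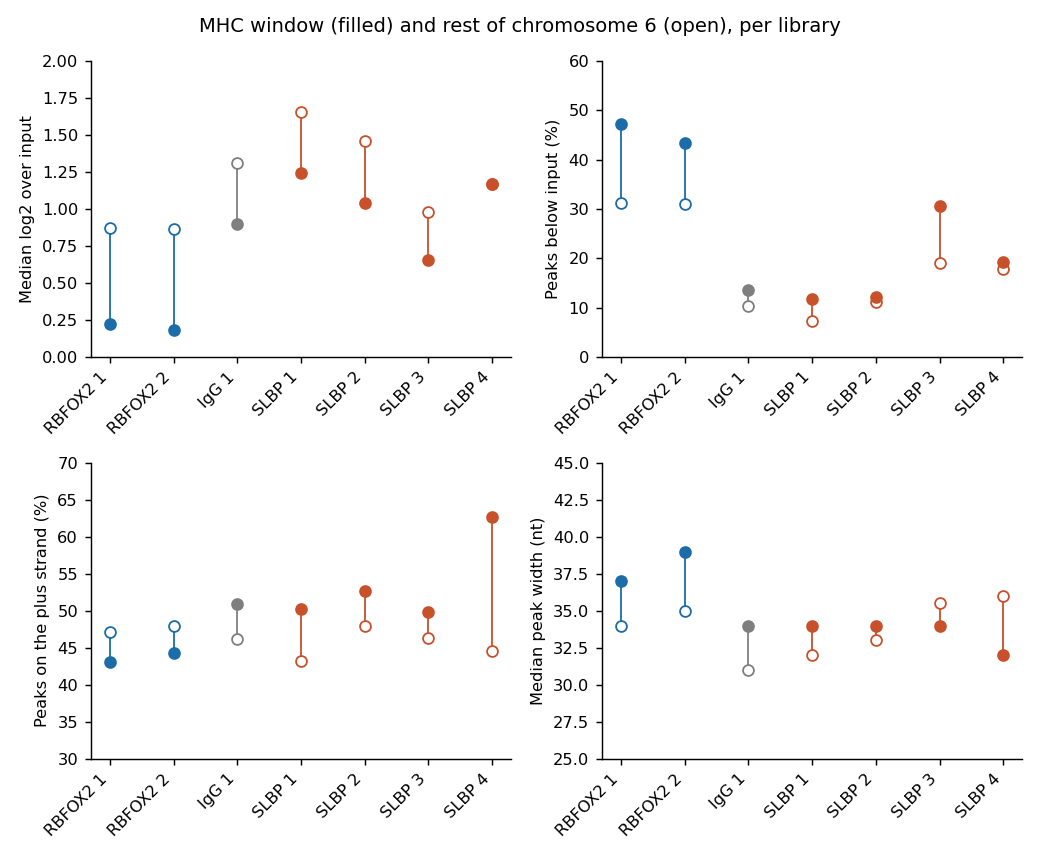
Median log2 fold over input, share of peaks below input in percent, share on the plus strand in percent and median peak width in nt, for each library in the MHC window (filled) and on the rest of chromosome 6 (open); the lower axes do not start at 0. The filled points lie lower in 6 of 7 libraries for the log2 fold and higher in 7 of 7 for the share below input, and RBFOX2 and SLBP part in direction for strand.

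Peaks of all lists that overlapped by at least 1 nt on a strand were joined into 1679 places in the MHC and 4617 on the rest of chromosome 6. Of the MHC places, 1038 (61.8%) held a peak in 1 list and 25 (1.49%) in all 7; on the rest of the chromosome the shares were 67.1% and 0.801%. RBFOX2 alone held 876 places (52.2%), SLBP alone 301 (17.9%) and IgG alone 130 (7.74%), and 127 (7.56%) held peaks of RBFOX2, SLBP and IgG. On the rest of chromosome 6 the same shares were 59.5%, 19.4%, 8.25% and 3.88%. These shares depend on list length, which ran from 10122 to 97594 peaks.

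RBFOX2 folds were lower at places that the other antibodies also held. At MHC places with no SLBP or IgG peak the median RBFOX2 log2 fold was 0.51 in replicate 1 (521 places) and 0.45 in replicate 2 (596 places). With peaks in 1 or 2 of the other 5 lists the medians were −0.00 (192 places) and −0.14 (197 places), and with 3 or more they were −0.98 (83 places) and −1.55 (76 places). In that last class 91.6% and 90.8% of the places lay below input. The rest of chromosome 6 showed the same order, with medians of 1.32 and 1.09, then −0.13 and −0.24, then −0.67 and −1.40. At places without an SLBP or IgG peak the MHC medians stood lower than those of the rest in both libraries; the difference between regions was not tested. Over 441 MHC places held by both RBFOX2 lists the folds of the 2 lists correlated with a Pearson r of 0.80 and a Spearman rho of 0.80 (0.82 and 0.81 over 1094 places of the rest of chromosome 6). This is a description over places, which share libraries and are not independent.

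Of the 1679 MHC places, 14 (0.834%) were enriched in both RBFOX2 lists, against 70 of 4617 (1.52%) on the rest of chromosome 6. Of the 29 enriched peaks of replicate 1, 19 (65.5%) lay on an enriched peak of replicate 2, and 23 of 45 (51.1%) in the other direction. On the rest of the chromosome these shares were 65.6% and 67.3%. Of the 14 places, 1 is the C4A place and 13 are others. Of the 13, 10 lay on the minus strand, 5 of them in the bin at 29.55 to 29.6 Mb, which held only minus-strand peaks. Over all RBFOX2 peaks of the MHC, 495 of 869 and 527 of 946 lay on the minus strand. While 11 of the 13 held no peak in any SLBP or IgG list, this was the most common class anyway. It held 521 and 596 MHC places of replicates 1 and 2, against 192 and 197 with 1 or 2 such lists, and 83 and 76 with more. The 13 places were 55 to 266 nt wide, with a median of 83 nt.

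The highest of the 13 by its weaker library was chr6:32796976-32797163 on the minus strand, 188 nt wide, with log2 folds of 5.56 and 5.23 in RBFOX2 replicates 1 and 2 and no peak in the other lists. It is the only 1 of the 13 in the class II stretch. A group of 5 places lay on the minus strand in the bin at 29.55 to 29.6 Mb. Those starting at 29570682, 29570809 and 29570864 touch without a gap, and that at 29570570 ends shortly before them, at 29570652. The group thus holds fewer separate sites than places. The widest of the 5, at chr6:29570864-29571080, had 4.50 and 5.89, and IgG had a peak there at 1.05. The place at chr6:29561447-29561559 had 5.41 and 4.34. Beside it lay the highest RBFOX2 peak of the MHC in replicate 1, chr6:29561396-29561446, with 5.94. The remaining 3 of the group, at 29570682 (3.66 and 4.90), 29570809 (3.30 and 4.37) and 29570570 (3.13 and 3.81), lay just before the widest by coordinate and were all higher in replicate 2.

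Outside that group the RBFOX2 places were scattered. At chr6:33161401-33161486 (minus strand) the log2 folds were 4.09 and 5.07, and at chr6:30271586-30271656 (minus strand) 3.81 and 4.40. A pair of touching places at chr6:31867172-31867297 (plus strand) had 4.37 and 3.49 in the first and 4.32 and 3.48 in the second. The place at chr6:28875097-28875177 (minus strand) had 3.08 and 4.99, the widest gap between the libraries. At chr6:30285141-30285406 (minus strand) the folds were 3.34 and 3.07, and this was the only 1 of the 13 with an SLBP peak, at 1.83 in replicate 1, and IgG stood at 1.09. The weakest, at chr6:31725383-31725447 (plus strand), had 3.03 and 3.61. With stricter limits, a −log10 p of at least 10 and a log2 fold of at least 4, only 3 places passed in both libraries in place of 14.

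The C4A place was called enriched in all 7 lists, IgG included. It had been picked from earlier results of these lists, so its values are a description without a test. Enriched peaks covered chr6:31958261-31958279, 19 nt on the plus strand, in every list. The log2 folds were 3.87 and 4.76 in RBFOX2 replicates 1 and 2, averaging 4.32 ± 0.63 (SD, n = 2). IgG had 4.77. SLBP replicates 1 to 4 had 5.37, 6.71, 4.57 and 4.51, a mean of 5.29 ± 1.03 (SD, n = 4). The IgG value lay inside the range of the SLBP libraries and above both RBFOX2 libraries. Folds of different lists stand side by side here, since their scalings are not known to match.

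The SLBP values at the C4A place were higher at 40 U, 5.37 and 6.71, than at 5 U, 4.57 and 4.51, without overlap; 2 against 2 libraries allow no p under 0.333. The −log10 p was 8.29 and 9.02 in RBFOX2, 5.01 in IgG, and 15.7, 15.7, 14.9 and 20.3 in SLBP. SLBP replicates 1 and 2 carried the identical value, 15.6576, and IgG stood just above the limit of 5. The highest MHC peaks of both RBFOX2 lists carried 15.6576 too, so this recurring value does not rank the libraries. With the stricter limits the place stayed enriched in the 4 SLBP lists and in none of the other 3. IgG (4.77) and RBFOX2 replicate 2 (4.76) passed the stricter fold limit of 4 and failed only on the −log10 p. Their folds lay above those of SLBP replicates 3 and 4, while RBFOX2 replicate 1 (3.87) failed both limits. The place was the highest peak of the MHC in IgG and in all 4 SLBP lists, whereas 12 and 8 RBFOX2 peaks of the MHC stood higher in replicates 1 and 2. Within the whole SLBP lists 169 of 284, 134 of 233, 187 of 289 and 217 of 236 enriched peaks stood higher. In the whole IgG list it was 10 of 51. In RBFOX2 replicates 1 and 2 it was 4014 of 5954 and 2213 of 7480.

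The borders of the place were nearly the same in each library. The enriched stretch began at 31958259 to 31958261 and ended at 31958279 in 5 lists and at 31958281 in IgG and SLBP replicate 4, and was 20 to 23 nt wide. It was 1 peak in IgG, 2 touching peaks in each SLBP list and 3 touching peaks in each RBFOX2 list, and all pieces of a list carried the same fold and the same −log10 p. The pieces were 4 to 12 nt wide in the RBFOX2 lists and SLBP replicates 1 to 3 and 6 and 15 nt wide in SLBP replicate 4. Beside them were a few peaks of 1 to 4 nt that were not enriched. These had log2 folds of −0.00 (replicate 1) and 0.19 and 0.67 (replicate 2) in RBFOX2 and 3.57 (replicate 1) and 3.04 (replicate 2) in SLBP.

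The C4A place stood alone. Beyond those flanking pieces, the nearest peak of any list lay 10.2 kb before it on either strand and 93.6 kb after it, and the next plus-strand peak after it lay 164 kb away. The 93.6 kb after it, from 31958285 to 32051902, is the 11th longest empty stretch of the MHC. In the GRCh38.p14 gene table, used here only for which genes neighbour each other, C4A is followed by the pseudogenes CYP21A1P, TNXA and WHR1B and then by C4B and CYP21A2, which encodes steroid 21-hydroxylase. C4A and C4B share most of their sequence, so the copy that gave the reads is uncertain; the sources used here do not say how reads fitting both copies were treated.

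**Figure D4:**
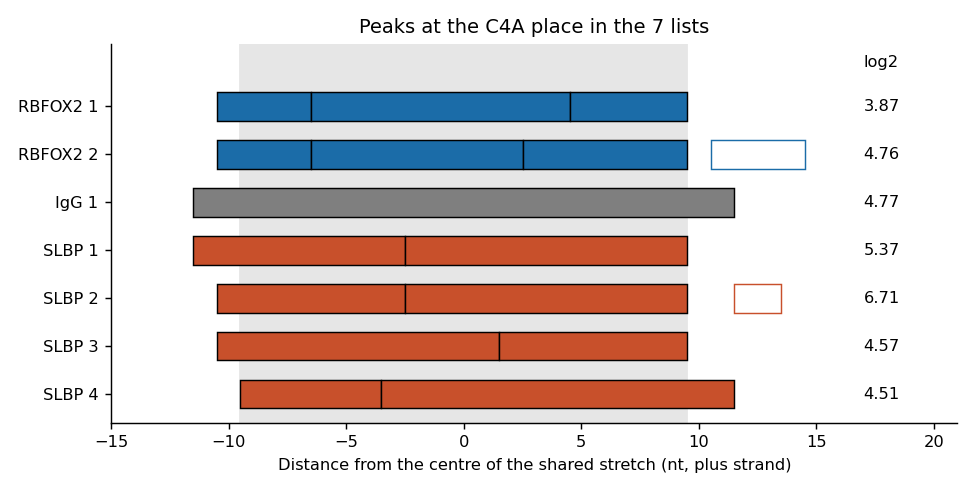
Peaks at the C4A place in each of the 7 lists, as bars against the distance in nt from the centre of the 19 nt that enriched peaks cover in every list (grey), with the log2 fold at the right; filled bars are enriched, open bars are not, and 3 pieces that touch the place from before are not drawn. The enriched bars of the 7 lists start and end within 2 nt of each other, and the folds run from 3.87 in RBFOX2 replicate 1 to 6.71 in SLBP replicate 2.

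At the other 24 MHC places with a peak in all 7 lists nothing was enriched. Their median log2 fold over the lists ran from −1.31 to 0.83, and the highest value of any list at any of them was 1.70. Both RBFOX2 lists lay below input at 24 of 24, with medians of −0.99 and −1.74. IgG lay below input at 13 of 24 and SLBP replicates 1 to 4 at 10, 13, 17 and 15, with medians of −0.05 for IgG and 0.24, −0.13, −0.49 and −0.09 for SLBP. All 7 lists lay below input at 5 of the 24. Over the whole genome 1512 of 165249 such places held a peak in all 7 lists, and the C4A place was the 1 that was enriched in all 7.

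These 24 places lay partly in short runs, joined where neighbours on a strand were at most 10 kb apart. The largest run held 7 places on the plus strand at chr6:33239853-33244190, 4.34 kb in the extended class II stretch, with medians from −1.31 to −0.21. It holds the lowest place of all, chr6:33240404-33240425, with −1.79 and −2.52 in RBFOX2, −0.27 in IgG and −1.59, −0.91, −1.31 and −0.47 in SLBP. A run of 5 places lay on the plus strand at chr6:30688140-30692333 in class I, with medians from −1.02 to 0.25. Its lowest place, at 30691632, had −1.16 and −2.28 in RBFOX2, −0.97 in IgG and 0.32, −1.02, −1.06 and −0.42 in SLBP. The other low places were at 31804850 (median −1.20), 33243953 (−1.19) and 33244167, all on the plus strand.

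After C4A the highest of the 25 was chr6:31803031-31803104 on the plus strand, with −0.96 and −0.31 in RBFOX2, 1.01 in IgG and 0.92, 1.64, 0.83 and 0.36 in SLBP. The next were chr6:31504150-31504226 on the minus strand (median 0.72), chr6:29913228-29913507 on the plus strand (0.37) and chr6:32944391-32944516 on the plus strand (0.36). At all 4, as at every one of the 24 places other than C4A, the RBFOX2 lists stood below the IgG list. The scalings of the lists are not known to match. A single further SLBP peak of the MHC was enriched, at chr6:31501860-31501907 on the minus strand in replicate 4, with a log2 fold of 3.49. At that place SLBP replicates 1 and 3 had 0.45 and 1.13, the RBFOX2 lists −0.49 and −0.34, and replicate 2 and IgG no peak.

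**Figure D5:**
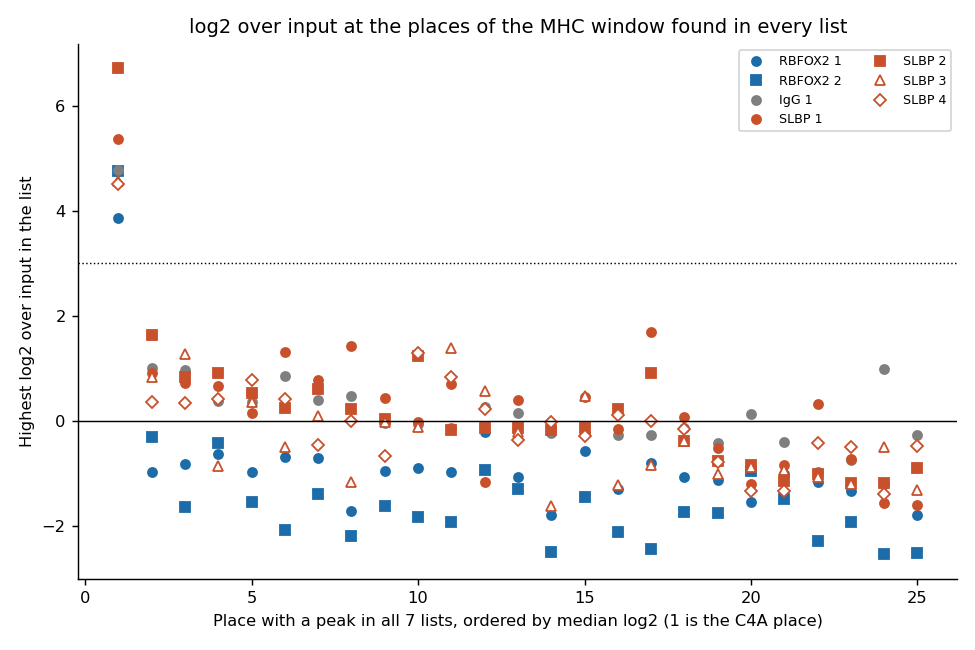
The highest log2 fold over input of each list at the 25 MHC places that held a peak in all 7 lists, ordered by the median over the lists; the dotted line is the limit of 3. The C4A place, at 3.87 to 6.71, is the only 1 above the limit, and at the other 24 both RBFOX2 lists lie below 0.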

How the data were processed

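The lists came from eCLIP in 293T cells: 7 of the 24 samples had a peak list, 7 were their inputs, and 10 RBFOX2 samples of an RNase I series were not analysed here. The submitters' processing notes name hg19 and the tools STAR, SAMtools, Picard, GATK and cutadapt; the sources used here do not give the peak caller or the treatment of reads that fit several places. The deposited columns are a −log10 p-value (0 wherever the fold is below 0, ceiling 400) and a log2 fold over the paired input, as read from the values and the lists' naming as input-normalized; 1 list was taken per library. All peaks lay on the main chromosomes, with 0 on alternate MHC haplotypes.

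Peaks were assigned by midpoint, and coordinates are counted from 1. Each comparison was a two-sided exact permutation test over library values (Python 3.11.15, numpy 2.4.6, pandas 2.3.3, scipy 1.17.1). The code was run on simulated lists with and without a planted shift in log2 fold. That run checked the recovered shift and not the error rate of the tests. The members, limits and places were chosen with earlier results of these lists known. Named are the C4A place, places enriched in both RBFOX2, at least 2 SLBP or the IgG list, and the 5 highest and lowest places held by all 7 lists. Genes could not be named without an hg19 annotation. Alternatives were other limits, merged touching peaks, another background, a narrower window (29.6 to 33.1 Mb), each library left out, SLBP at 40 U only and pairing by replicate number; leaving out the C4A place or 1 bin was added after seeing the data.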

Additional observations from a re-analysis of the deposited data

Results flagged for a closer look

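Relative to the rest of chromosome 6, the plus-strand share of the MHC was lower in both RBFOX2 libraries and higher in all 4 SLBP libraries, a difference between the antibodies of −12.2 percentage points (exact permutation test, two-sided, p = 0.133, the smallest possible with 2 and 4 libraries). The share of enriched peaks also moved in opposite directions, with a difference of −4.68 points (exact permutation test, two-sided, p = 0.133). That difference was −2.30 points without RBFOX2 replicate 1 and −7.05 without replicate 2. The SLBP side rests on the C4A place and 1 other peak. The C4A place was picked from these lists, and the SLBP background share was 0 in all 4. The SLBP direction was thus fixed in advance, and this p-value supports nothing. Median peak width in the MHC was above the background in both SLBP libraries at 40 U and below it in both at 5 U, a difference of 4.25 nt (exact permutation test, two-sided, p = 0.333, the smallest possible).

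Single SLBP libraries stood apart from the other 3 in 2 of 37 sets of 4 values, and chance alone gives about 1 in 20. The median width of MHC peaks was 32 nt in SLBP replicate 4 and 34 nt in the others. At chr6:33239853-33239903 SLBP replicate 3 had a log2 fold of −1.63, against −0.14, −0.17 and −0.03.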

How the results depend on the processing

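The 6 differences between RBFOX2 and SLBP kept their direction in 36 of 36 recomputations with a library left out and 45 of 45 with another setting, including pairing by replicate number (replicate block), which gave −4.50 points for the share of peaks in the MHC, −9.81 points for the strand difference and −0.25 for the log2 difference, with no p under 0.5. Replicate numbers mark no known shared culture. The enriched share is 1 of the 6 differences. Its SLBP direction was fixed in advance, so its part of these counts supports nothing. Sizes moved more than directions: the difference in the share of peaks in the MHC was −2.72 without RBFOX2 replicate 2, and the width difference was 2 nt with SLBP at 40 U only. The differences from the rest of chromosome 6 kept their sign in 34 of 35 and 28 of 28, but the strand difference of 4.33 points came to 0.0172 against all other autosomes and chromosome X (exact permutation p = 1, n = 7), which is no difference in size, and to 2.03 without SLBP replicate 4. The exception in sign was the enriched share, whose mean difference of −0.44 points became 0.48 without RBFOX2 replicate 1, with −0.84 as the lowest value over the libraries left out. Leaving out the C4A place or the bin at 29.55 to 29.6 Mb brought the adjusted p of the log2 difference (−0.43 and −0.46) and of the share below input (7.38 and 8.01 points) to 0.0391, from 0.0781; both removals take out peaks known for high folds, which lowers the MHC by construction, so these p-values support nothing.

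Between SLBP at 40 U and 5 U the share of peaks in the MHC (−0.16 points) turned to 0.0753 with touching peaks merged and ran from −2.33 to 2.01 over libraries left out. The share below input turned to 0.44 points with the narrower window and ran from −8.84 to 1.18, and the strand difference from −12.2 to 2.51. The mean RBFOX2 count of 37 enriched peaks was 26 with touching peaks merged, 10 with stricter limits and 22 without the bin. The SLBP mean of 2.25 was 1.25 with touching peaks merged and 0.25 without the C4A place. The IgG count of 1 was 2 with the looser p and 0 with stricter limits or without the C4A place. With stricter limits the C4A place was enriched in 4 lists and 3 places in both RBFOX2 lists. The lists hold no read counts, so depth limits every fold to an unknown degree.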
